A study of Mus musculus with 6 samples.

Results

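PML nuclear body genes were examined in monocytes from the inflamed central nervous system (CNS). The group comprised 7 genes that were listed by name, Pml, Sp100, Sp110, Sp140, Daxx, Atrx and Morc3, out of 54232 genes in the deposited files, and all 7 were among the 11254 genes with enough counts to be tested. Experimental autoimmune encephalomyelitis (EAE), a mouse model of multiple sclerosis, was induced in mixed bone marrow chimera mice, all of which received 30000 IU of rIFN-β (recombinant interferon-β) daily. Recipients were GFP+ mice that were irradiated 2 times with 550 Rad at an interval of 12 h and then reconstituted with equal numbers of marrow cells of 2 kinds of donor, WT mice carrying CD45.1 and Ifnar1-/- mice carrying CD45.2, 6 to 7 weeks before immunization. Donor monocytes (GFP-, CD45+, CD11b+, Ly6Chi, Ly6G-) were sorted from the CNS at disease peak, and 3 WT and 3 Ifnar1-/- libraries were sequenced. IFNAR1 is a chain of the receptor for all type I interferons, so the comparison asks which transcripts differ between monocytes with and without that receptor in the same treated environment. No library came from mice that were not treated, the ages of the mice were not given in the sources used here, and the donors also differed in their CD45 allele. Both genotypes were sorted from the same mixed chimeras, and the paper gives as many recipients as libraries per group. By that description the groups share mice. Unless a block is named, the fits below treated the libraries as independent. It was not stated whether libraries of the same number came from the same mouse, and p-values measure the spread between these libraries.

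PML nuclear bodies are round, membrane-free structures in the cell nucleus, built on a shell of the PML protein. PML is modified with the small protein SUMO, and this modification holds together partner proteins such as SP100 and DAXX. The bodies are known for antiviral defense, for silencing of foreign and repetitive DNA through the histone variant H3.3, and for control of cell death and senescence. Several of their components have long been known as interferon-stimulated genes. SP100, SP110 and SP140 belong to 1 family of chromatin-binding proteins, DAXX and ATRX act together as a chaperone and remodeler that deposit H3.3, and MORC3 is an ATPase that associates with PML bodies.

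Libraries held 4531782 to 7321380 expected counts in WT and 5442568 to 6916101 in Ifnar1-/- monocytes, and values below are normalized CPM (counts relative to library size after TMM adjustment) unless TPM, which also divides by transcript length, is named. Ifnar1 levels were 153, 126 and 111 in WT and 110, 102 and 109 in Ifnar1-/- libraries (log2 fold change 0.28, adjusted p = 0.360 by edgeR). Levels over the whole gene thus did not serve to check the genotype. The 8 monocyte markers were detected in every library, with summed levels of 8413 to 10221 in WT and 8870 to 10198 in Ifnar1-/- libraries, and Ptprc, which encodes CD45, differed by 0.03 on the log2 scale. Single monocyte markers differed, however. Ly6c2, which encodes the Ly6C antigen used in the sort, was higher in WT, at 726, 788 and 640 against 177, 300 and 337 (log2 fold change 1.4, adjusted p = 0.00957 by edgeR). Fcgr1 was above the Ifnar1-/- range in all WT libraries (0.71, adjusted p = 0.0839 by edgeR) and Ccr2 was below it (-0.62, adjusted p = 0.143 by edgeR). Neither was called by edgeR. DESeq2 called 2 of the 8 monocyte markers higher and 1 lower in WT, beside 314 higher and 105 lower over all genes. The sums of other lists were low or variable, at 1.49 to 1.71 in WT and 0.305 to 1.10 in Ifnar1-/- libraries for B cells, 3.40 to 11.3 and 1.02 to 3.36 for NK cells, and 224 to 973 and 292 to 842 for neutrophils. Among B cell markers Pax5 was at 0 in every library, and Cd79b stood at 1.38 to 1.57 in WT and 0.305 to 0.919 in Ifnar1-/- libraries. Of the 5 neutrophil markers tested, 0 were called by edgeR and 1 was called higher by DESeq2. Sums for microglia, plasmacytoid dendritic cells and oligodendrocytes overlapped between the groups. The 9 T cell markers summed to 95.9 to 131 in WT and 48.2 to 55.4 in Ifnar1-/- libraries. Most of that sum was Il7r, at 53.5 to 83.1 against 34.2 to 47.6, whereas Cd3e stood at 2.98 to 8.09 against 0.508 to 2.75. Of the 8 T cell markers tested, 0 passed the edgeR test, 7 had an unadjusted p below 0.05, compared with 17.8% of all tested genes, and 1 passed with DESeq2. The part of other cell types, and of the sorted monocytes differing in Ly6c2, in the results below was not tested. In bulk libraries such as these, fewer cells of a type and less RNA per cell cannot be told apart.

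Pml, Sp100, Daxx and Sp110 were higher in WT than in Ifnar1-/- monocytes, so 4 of the 7 genes passed the edgeR test (adjusted p no higher than 0.05 with a change of 1.5-fold or more). Across all tested genes 2.13% were called, 1.67% higher and 0.462% lower in WT. No member was called lower, and none had a lower level in WT at an unadjusted p below 0.05. The same 4 to 0 split was given by DESeq2. With replicate number as a block, edgeR called 3 members, without Sp110, and DESeq2 called 4. All 3 WT libraries lay above all 3 Ifnar1-/- libraries for 5 members, compared with 11.1% of the tested genes. The median log2 fold change of the 7 members was 0.86, beside -0.01 over all tested genes. Exact permutation tests over 3 against 3 libraries are two-sided here and cannot give a p below 0.1.

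**Figure D1:**
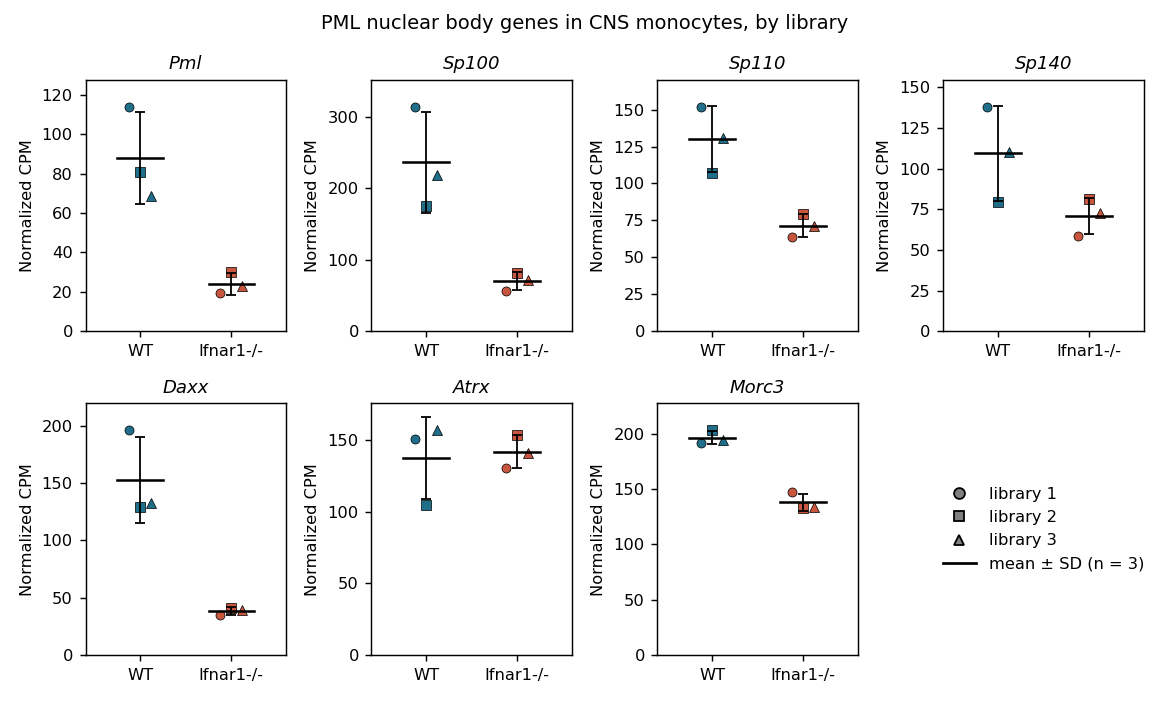
Normalized CPM of the 7 PML nuclear body genes (vertical axes, linear, each from 0) in the 3 WT and 3 Ifnar1-/- libraries, with points for libraries and bars for the mean ± SD. The groups are separate for Pml, Sp100, Sp110, Daxx and Morc3 and overlap for Sp140 and Atrx.

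Pml encodes the scaffold of the bodies and lies on the minus strand of chromosome 9 (GRCm38, 58218076 to 58249786). Its level was 114, 80.8 and 68.7 in WT libraries 1 to 3, and 19.2, 30.3 and 22.8 in Ifnar1-/- libraries 1 to 3. The lowest WT library was thus above the highest Ifnar1-/- library, and the means were 87.9 ± 23.5 and 24.1 ± 5.66 (SD, n = 3 each). The log2 fold change was 1.87 (SE 0.23, 95% interval 1.37 to 2.37), a 3.65-fold higher level in WT, with adjusted p = 0.00129 by edgeR and an exact permutation p = 0.1. WT library 1 had the highest Pml level, and without it the log2 fold change was 1.64. In TPM the 3 WT libraries were close together, at 25.3, 25.5 and 24.3, against 5.28, 9.33 and 6.19.

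Daxx encodes a histone chaperone that SUMO-modified PML recruits to the bodies, and it lies on the plus strand of chromosome 17 (33909414 to 33915590). It had the largest change among the 7 genes, rank 81 of all tested genes when ordered by log2 fold change, with Pml at rank 92 and Sp100 at rank 100. Daxx levels were 196, 129 and 133 in WT and 34.5, 40.7 and 39.5 in Ifnar1-/- monocytes. The Ifnar1-/- libraries lay close together and far below every WT library. The log2 fold change was 2.00 (SE 0.19, 95% interval 1.58 to 2.42), equal to 3.99-fold, with adjusted p = 0.000261 by edgeR and an exact permutation p = 0.1. Without WT library 1 it was 1.78.

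The promoters of the genes with the largest changes are shown because these genes had changes of similar size. The sequence is from RefSeq on GRCm38.p6, which matched all 7 members. Each line gives 100 bases on the strand of the gene. For Pml (chr9:58249787-58249886, minus strand) and Sp100 (chr1:85649888-85649987, plus strand) they end just before the RefSeq start site, and for Daxx (chr17:33909314-33909413, plus strand) just before its most upstream annotated start. Capitals mark a stretch that Sp100 shares with Sp110.
Pml: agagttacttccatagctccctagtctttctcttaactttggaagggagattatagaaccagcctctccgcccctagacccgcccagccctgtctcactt
Daxx: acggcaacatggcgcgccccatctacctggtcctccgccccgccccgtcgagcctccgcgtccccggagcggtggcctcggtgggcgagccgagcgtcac
Sp100: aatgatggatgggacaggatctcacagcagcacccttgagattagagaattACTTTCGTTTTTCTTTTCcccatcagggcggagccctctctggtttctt

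The Daxx window was rich in G and C (76%), in contrast to Pml (51%) and Sp100 (47%). Each RefSeq promoter entry, from 250 bases before to 50 after a start, was searched on both strands for GAAANNGAA, the core of the interferon-stimulated response element, and for TTCNNNGAA, the gamma activated site. The letters GAAANNGAA were in 8.56% and TTCNNNGAA in 8.3% of the 32851 promoters, and neither was in any of the 11 promoters of the 7 members. That says only that these letters are not in these windows.

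Sp100 encodes a permanent resident of PML bodies that represses incoming viral genomes, and it lies on the plus strand of chromosome 1 (85649988 to 85709998) next to Sp110 and Sp140. Its level was 314, 175 and 219 in WT and 56.8, 81.5 and 71.7 in Ifnar1-/- monocytes. Every WT library had more than the highest Ifnar1-/- library, and the means were 236 ± 71.3 and 70.0 ± 12.4 (SD, n = 3 each). The log2 fold change was 1.76 (SE 0.23, 95% interval 1.25 to 2.26), or 3.38-fold, with adjusted p = 0.00203 by edgeR and an exact permutation p = 0.1. Without WT library 1, the highest of the 6, it was 1.5.

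Sp110, a nuclear body protein linked to macrophage resistance to intracellular bacteria, showed a smaller change. The gene lies on the minus strand of chromosome 1 (85576899 to 85598817). Levels were 152, 107 and 131 in WT and 63.7, 79.5 and 71.4 in Ifnar1-/- libraries. The groups did not overlap, and the log2 fold change was 0.86 (SE 0.17, 95% interval 0.50 to 1.23), or 1.82-fold, with adjusted p = 0.0240 by edgeR and an exact permutation p = 0.1. This call rested on single libraries. The adjusted p was 0.0756 without WT library 3, 0.148 without Ifnar1-/- library 1 and 0.117 without Ifnar1-/- library 3, with log2 fold changes of 0.80 to 0.88. On log2(TPM + 1) with limma-trend the adjusted p was 0.161. With replicate number as a block it was 0.0568 by edgeR and 0.00790 by DESeq2.

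Sp140, a chromatin reader expressed mainly in immune cells, lies between Sp110 and Sp100 on the plus strand (85600378 to 85645037). Levels were 138, 79.7 and 110 in WT and 58.8, 81.0 and 72.5 in Ifnar1-/- libraries. WT library 2 was below Ifnar1-/- library 2, so the groups overlapped. The log2 fold change was 0.63 (SE 0.21, 95% interval 0.17 to 1.09) and did not pass the edgeR test (adjusted p = 0.154, exact permutation p = 0.200). It passed only when no filter on low counts was applied (adjusted p = 0.0107).

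Sp100 and Sp110 promoters shared the longest stretch among the 21 pairs of members when 1 mismatch was allowed, a search that was chosen after the values were seen. The stretch covered 18 bases, of which 17 were identical, and the longest stretches of the next pairs were 14 and 12 bases. It began 49 bases before the start site of Sp100 and at base 8 of the Sp110 transcript. Both are shown in capitals within 30 bases (Sp100 chr1:85649933-85649962, plus strand, and Sp110 chr1:85598780-85598809, minus strand).
Sp100: agaattACTTTCGTTTTTCTTTTCcccatc
Sp110: gagatcACTTTCATTTTTCTTTTCttgaag

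With any letter allowed at the differing base, this pattern was in 4 of 32851 promoters (0.0122%), which belonged to Sp100, Sp110 and Gm7609. The pattern was taken from Sp100 and Sp110, so these match by construction and the share does not test how particular it is. Gm7609 is a pseudogene in the same chromosome 1 region that shares part of its transcript sequence with Sp100. Gm7609 stood at 3.27, 1.28 and 1.58 in WT libraries and had 0 counts in each Ifnar1-/- library, where a count of 3 equals 0.458 to 0.552 (counting error only). It did not pass the filter for testing.

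Sequence shared with other genes limits how exactly reads can be assigned. All distinct 75-base windows in the annotated transcripts, matching the read length, were searched for in other genes on either strand. Of these, 3.12% for Sp100, 30.4% for Sp110 and 46.3% for Sp140 also occurred in another gene. The share was 0.510% for Pml and 0 for Daxx, Atrx and Morc3. The leading partner was Gm16026 for Sp110 (18.1% of windows) and Gm17017 for Sp140 (17.5%), and both had under 0.5 CPM in every library. Gm17017 overlaps Sp140 on the opposite strand, as G530012D18Rik does for Sp110 and Mir6385 for Pml. Whether strand information kept such reads apart was not tested. When the counts of the 13 genes that share at least 1% of the Sp140 windows were added to it, levels were 194, 121 and 149 in WT and 80.6, 108 and 99.7 in Ifnar1-/- libraries. These sums, which were not planned, no longer overlapped and differed by 0.67 on the log2 scale (exact permutation p = 0.1). The partners with the most counts, A530032D15Rik and C130026I21Rik, were themselves above the Ifnar1-/- range in all WT libraries. The sums therefore cannot tell whether Sp140 itself differed. The same sum for Sp110 and its 4 partners differed by 0.88, and for Sp100 and its 4 partners by 1.74. RSEM divides reads that fit several genes, so the levels of Sp110 and Sp140 are less certain than those of the other members.

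Atrx, the chromatin remodeler that partners Daxx in H3.3 deposition, was not called. It lies on the minus strand of chromosome X (105797615 to 105929403), and its levels were 151, 105 and 157 in WT and 131, 154 and 141 in Ifnar1-/- libraries. WT library 2 was the lowest and WT library 3 the highest of the 6, so the Ifnar1-/- libraries lay within the WT range. The difference was -0.04 on the log2 scale (SE 0.17, 95% interval -0.43 to 0.34, adjusted p = 0.932 by edgeR, exact permutation p = 0.900). The interval does not reach a difference of the size seen for Daxx, Pml or Sp100. Its sign depended on the setting, with 0.13 without WT library 2 and 0.03 without Ifnar1-/- library 2.

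Morc3 lies on the plus strand of chromosome 16 (93832121 to 93876073). Levels were 192, 203 and 194 in WT and 147, 133 and 134 in Ifnar1-/- libraries. The 3 WT libraries were tight and all above the Ifnar1-/- libraries, yet the difference was small, with a log2 fold change of 0.51 (SE 0.13, 95% interval 0.22 to 0.80), or 1.42-fold. It missed the threshold (adjusted p = 0.0856 by edgeR, exact permutation p = 0.1) and passed with an offset for GC content and length (0.65, adjusted p = 0.0182). With DESeq2 the adjusted p was 0.0112, and the log2 fold change of 0.52 was below the 1.5-fold threshold. The gene is 2.35 Mb from Ifnar1, so a genotype effect and donor DNA carried along with the targeted Ifnar1 allele cannot be told apart. In TPM the groups overlapped, at 78.2, 150 and 137 in WT and 57.2, 87.6 and 54.9 in Ifnar1-/- libraries.

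**Figure D2:**
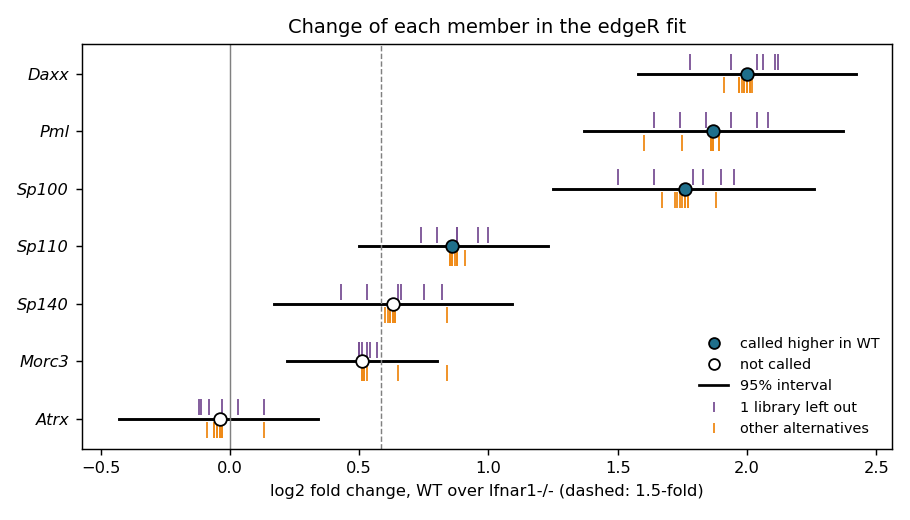
Log2 fold change of WT over Ifnar1-/- monocytes (horizontal axis) for each member, with the 95% interval of the edgeR fit, values with 1 library left out (upper ticks) and values under the other alternatives (lower ticks). Daxx, Pml and Sp100 stay at 1.5 or above in every alternative, and Atrx lies on both sides of 0.

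Levels per transcript length put Sp100 (137 TPM), Daxx (126) and Morc3 (122) at the top in WT monocytes, followed by Sp110 (66.9), Sp140 (57.2), Atrx (55.4) and Pml (25). Neighbors within the top 3, and within the group from Sp110 to Atrx, overlapped between libraries. In Ifnar1-/- monocytes the order was Morc3 (66.6 TPM), Atrx (58.5), Sp100 (43.2), Sp110 (37.0), Sp140 (36.4), Daxx (31.2) and Pml (6.93), and only Pml was separate from its neighbor. Daxx went from the second to the sixth place, while Pml was the lowest in both genotypes.

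Ratios within a library tested whether members shifted against each other, over 4 ratios chosen for partners and relatives. The log2 ratio of Daxx to Atrx in TPM was 1.29, 1.34 and 0.96 in WT and -0.95, -0.94 and -0.83 in Ifnar1-/- libraries. Daxx was thus above Atrx in every WT library and below it in every Ifnar1-/- library, a difference of 2.10 (exact permutation p = 0.1, adjusted p = 0.200). Sp100 to Sp110 stood at 1.25, 0.91 and 0.94 against 0.09, 0.30 and 0.24, also without overlap, a difference of 0.83 (exact permutation p = 0.1, adjusted p = 0.200). Accordingly, Sp100 made up 49.6% to 55.0% of the TPM of the 3 Sp genes in WT and 36.3% to 37.7% in Ifnar1-/- monocytes. Sp140 to Sp110 differed by -0.21 (exact permutation p = 0.5) and Pml to Daxx by -0.13 (exact permutation p = 0.700), with overlapping groups in both. Pml to Daxx was -2.36, -2.20 and -2.41 in WT and -2.32, -1.83 and -2.42 in Ifnar1-/- libraries.

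**Figure D3:**
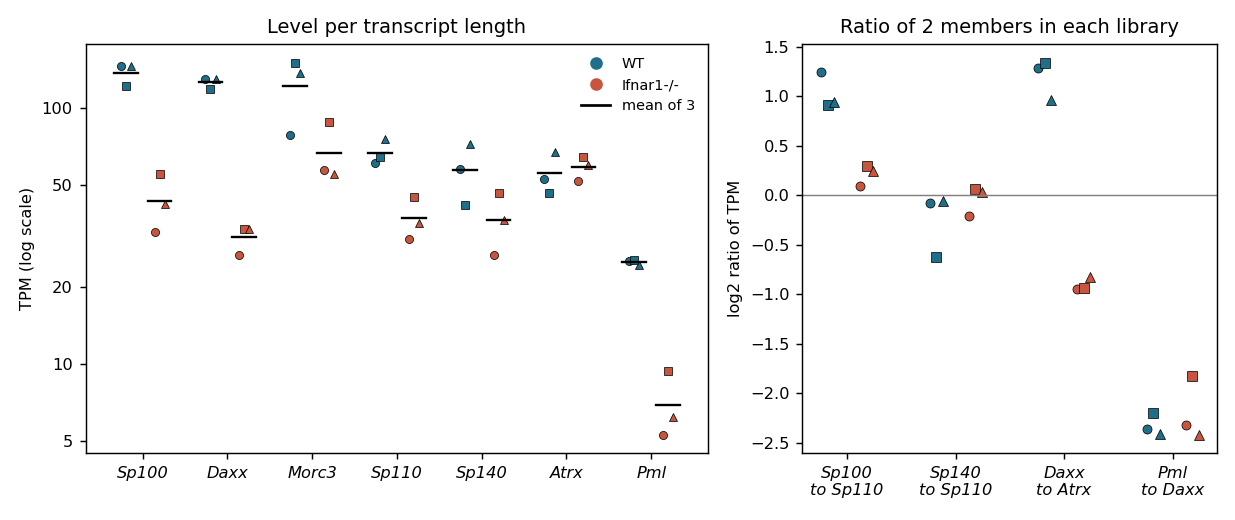
Left, TPM (log scale) of each member in WT and Ifnar1-/- libraries, with lines for the mean of 3. Right, log2 ratio of the TPM of 2 members in each library, where Daxx to Atrx lies above 0 in WT and below 0 in Ifnar1-/- libraries and Pml to Daxx overlaps.

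RSEM also gives a mean transcript length per gene, weighted by the abundance of its transcripts, which serves as a readout of isoform use. The groups did not separate for any of the 7 members, and they separated for 8.49% of all tested genes. The largest difference was for Morc3, at 1717 ± 186 bases in WT and 2142 ± 379 in Ifnar1-/- monocytes (SD, n = 3 each, exact permutation p = 0.200), and that length enters its TPM. Sp100 transcripts averaged 1718 ± 31.9 and 1677 ± 5.76 bases (exact permutation p = 0.200).

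Genes around PML bodies were counted by function. Of 18 genes for attachment, removal and reading of SUMO, 0 were called by edgeR or DESeq2, 2 had an unadjusted p below 0.05 (17.8% of all tested genes did), and the median log2 fold change was -0.05. Pias4, a SUMO ligase, had the smallest p in this list, at 19.1, 17.2 and 13.4 in WT and 11, 11 and 8.64 in Ifnar1-/- libraries (log2 fold change 0.70, SE 0.21, adjusted p = 0.126 by edgeR). The groups did not overlap for Pias4. Of 8 genes for H3.3 and its other chaperones, 0 were called by either tool and 0 had an unadjusted p below 0.05. H3f3b, which encodes H3.3, had the smallest p of these (log2 fold change 0.27, adjusted p = 0.432 by edgeR). Of the H3.3 chaperone genes examined, Daxx was called and the others were not. Over all tested genes 2.13% were called by edgeR, so 0 calls in lists of 18 and 8 genes are near that share.

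Among 23 regulators and recruited partners of PML, 1 was called higher and 0 lower, and 6 had an unadjusted p below 0.05, beside 2.13% called and 17.8% below 0.05 over all tested genes. Isg20, an interferon-induced exonuclease found in PML bodies, stood at 31.3, 14.5 and 17.8 in WT and at 1.99, 1.02 and 1.29 in Ifnar1-/- libraries. The lowest WT library was far above the highest Ifnar1-/- library, and WT exceeded Ifnar1-/- by 3.87 on the log2 scale (SE 0.38, adjusted p = 0.000347 by edgeR). Of the other genes with a SAND domain, the DNA-binding fold shared by the Sp family, Aire was at 0 in every library and 0 of 3 tested were called by edgeR or DESeq2, with 0 at an unadjusted p below 0.05. Deaf1 came closest (0.42, adjusted p = 0.468 by edgeR). Of the other MORC genes, Morc1 and Morc2b were at 0 and Morc2a was not called (-0.27, adjusted p = 0.484 by edgeR).

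Of 12 reference genes of interferon signaling, 3 were called higher, beside 1.67% of all tested genes. Irf7, a transcription factor of the interferon response, had a log2 fold change of 4.08 (adjusted p = 1.6e-05 by edgeR), Isg15, a ubiquitin-like modifier, 3.56 (2.0e-05) and Stat2, a subunit of the factor that mediates the type I response, 2.04 (0.000347). The log2 fold changes of Daxx, Pml and Sp100 were close to that of Stat2 and below those of Irf7 and Isg15. Irf9, the DNA-binding partner of Stat2, was not called (0.50, adjusted p = 0.0842 by edgeR).

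**Figure D4:**
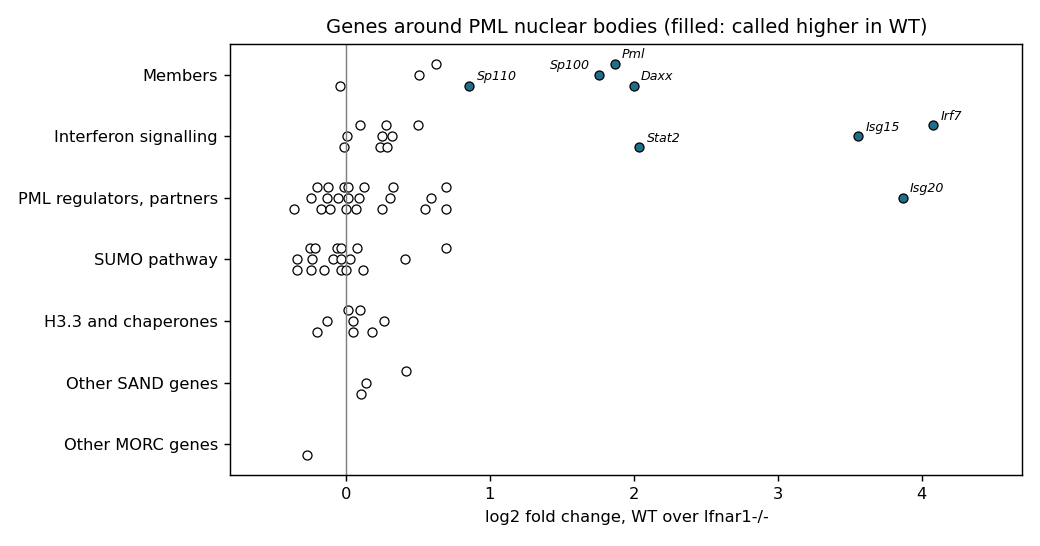
Log2 fold change of WT over Ifnar1-/- monocytes (horizontal axis) for each tested gene of the 7 lists (rows), with filled points for genes called higher in WT. Filled points are 4 members, Irf7, Isg15, Stat2 and Isg20, and the SUMO and H3.3 lists lie around 0 with none filled.

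The surroundings of Sp110, Sp140 and Sp100 were examined within 500 kb on either side. Of 42 other annotated genes there, 27 had any count and 7 were tested. Among those tested, 1 was called higher and 0 lower, beside 1.67% and 0.462% of all tested genes. C130026I21Rik stood at 20.3, 14.2 and 12.8 in WT and 5.34, 7.63 and 7.36 in Ifnar1-/- libraries, without overlap (log2 fold change 1.24, SE 0.25, adjusted p = 0.0312 by edgeR). It shared sequence with 9.03% of the Sp140 windows and 2.09% of the Sp110 windows, so its level is uncertain in the same way. Its call was kept without WT library 3 and lost without any other single library, with adjusted p = 0.0530 to 0.149 by edgeR and log2 fold changes of 1.01 to 1.35. On the same side, A530032D15Rik stood at 24.3, 20.2 and 17.8 in WT and 8.86, 11.7 and 13.8 in Ifnar1-/- libraries, also without overlap. It was not called (log2 fold change 0.87, adjusted p = 0.0764 by edgeR), and it shared 8.45% of the Sp140 windows. On the other side of Sp100, the 5 tested genes were not called, with log2 fold changes of 0.29 for A630001G21Rik, -0.15 for Cab39, 0.11 for Itm2c, -0.22 for Psmd1 and 0.79 for Armc9. All WT libraries were above all Ifnar1-/- libraries for Armc9 (5.12, 5.10 and 5.92 against 1.68, 5.08 and 2.57, adjusted p = 0.326 by edgeR). The Sp genes lie 52.41 to 52.49 Mb from Ptprc, whose alleles distinguish the donors.

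**Figure D5:**
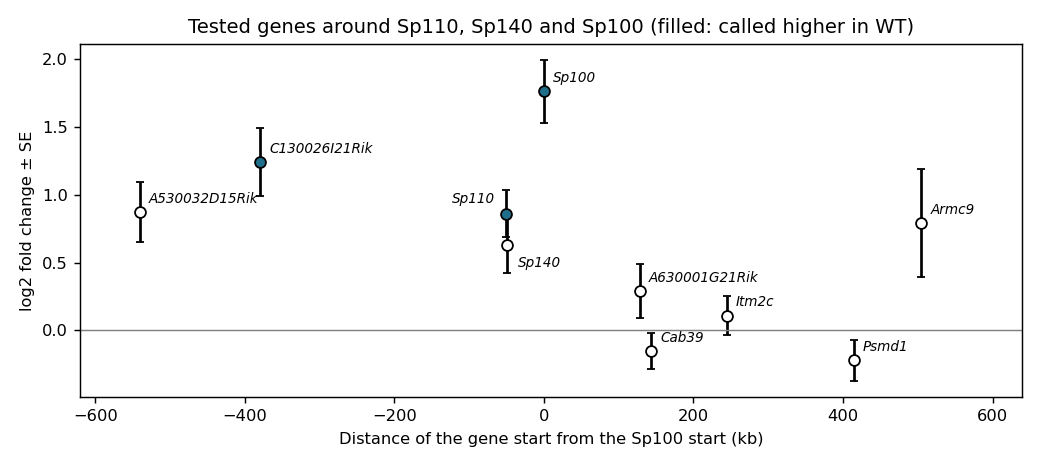
Log2 fold change ± SE (vertical axis) of tested genes against the distance of their start from the Sp100 start in kb (horizontal axis), with filled points for genes called higher in WT. Sp100, Sp110 and C130026I21Rik are filled, and the 5 genes to the right of Sp100 are not.

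For each called member the protein-coding genes with the nearest profile were taken by the Euclidean distance of centered log2(CPM + 0.5) over the 6 libraries, among 10050 genes. Nearest to Pml were Dhx58 (distance 0.26), Pde7b (0.27) and Phf11b (0.33), and nearest to Daxx were Dhx58 (0.17), Pde7b (0.24) and Stat2 (0.25). Dhx58 encodes a cytosolic RNA sensor. Sp100 had Trp53i11 (0.29) and Epsti1 (0.30) as its nearest genes, and Sp110 had Usp25 (0.18), Arhgap27 (0.20) and Tor1aip1 (0.21). Between members, distances were 0.40 for Pml and Daxx, 0.41 for Sp100 and Daxx, 0.45 for Pml and Sp100, and 0.38 for Sp110 and Sp140. Pml was farther from Sp110 (1.3) and farthest from Atrx (2.43). The profiles hold the difference between the groups, so genes with similar fold changes come out close to each other. The distances are thus not evidence apart from the fold changes. The points share libraries, so these distances describe the 6 libraries only.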

How the data were processed

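The authors mapped reads to GRCm38 with STAR 2.6.0c and estimated genes with RSEM 1.2.31, per the labels. They deposited expected counts (estimated, not normalized), TPM (per transcript length, with 1 total for all libraries), FPKM (not used here) and mean transcript lengths per gene. The labels and the paper name different library kits.

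Expected counts were rounded. GENCODE M21 (reference chromosomes) matched 54079 of 54232 identifiers. WT was compared with Ifnar1-/- by edgeR 4.0.16 in R 4.3.3 (TMM, filterByExpr with a minimum count of 10, quasi-likelihood test, Benjamini-Hochberg adjustment over 11254 genes, no block). The test was checked on simulated counts. Ratios used TPM plus 0.1, exact permutation tests log2(CPM + 0.5).

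Other fits tried were DESeq2 1.42.0 (used in the paper), limma-voom and limma-trend (limma 3.58.1), other normalizations, filters and offsets, a replicate block and leaving out each library.

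The members and lists were chosen with earlier results of these data known. Named genes are the members, the called genes of each list or else, outside marker lists, the one with the smallest p, called neighbors, the nearest profiles, Ifnar1 and Ptprc. Cd3e, Il7r, Pax5, Aire, Morc1, Morc2b, Fcgr1, Ccr2, Cd79b, Irf9, Gm7609, A530032D15Rik, G530012D18Rik, Mir6385, A630001G21Rik, Cab39, Itm2c, Psmd1 and Armc9 were named after their values were seen. Protein sequences were not used here, and results for some single genes of these lists and profiles are not reported here.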

Additional observations from a re-analysis of the deposited data

How the results depend on the processing

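Across 17 alternatives, the number of members called higher in WT ranged from 3 to 5 and none was called lower. Pml (log2 fold change 1.6 to 2.08), Sp100 (1.5 to 1.95) and Daxx (1.78 to 2.12) passed the test in all 17. Over all genes the counts moved more. Genes called higher numbered 314 with DESeq2, 610 with no filter on low counts and 112 with limma-trend on log2(TPM + 1), against 188, and genes called lower 105, 262 and 16, and 33 with an offset for GC content and length, against 52. Leaving out 1 library gave 110 to 204 higher and 7 to 41 lower, with the lowest counts of higher genes without Ifnar1-/- library 3 (110) or library 1 (112). The list of PML regulators and partners had 4 called genes with no filter and 0 when at least 10 counts were required in every library, a filter that Isg20 cannot pass. The neighborhood of Sp100 had 2 calls with DESeq2, 4 with no filter, 2 with the GC content and length offset, and 0 to 1 with 1 library left out. Atrx ranged from -0.12 to 0.13 with 1 library left out and changed sign, without passing the test, with the GC content and length offset (0.13), without WT library 2 (0.13) and without Ifnar1-/- library 2 (0.03). The difference for Morc3 was 0.85 on log2(TPM + 0.5). The cause of these shifts was not tested.

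Replicate numbers are shared between groups, but the correlations of deviations between same-numbered libraries were 0.0872, 0.0265 and 0.289, and neither the labels nor the paper says that a number marks a mouse. WT library 1 correlated more with Ifnar1-/- library 2 (0.101) than with its own number. WT libraries 2 and 3 correlated most with their own number. The summed neutrophil markers were highest in library 3 of both groups, at 973 in WT and 842 in Ifnar1-/-, against 224 to 306 in the other libraries. Whether libraries of the same number share a mouse was not tested. With the replicate block 182 genes were called higher and 38 lower, 3 members were called (the adjusted p of Sp110 was 0.0568), and the Sp100 neighborhood had 0 calls, also with the block in DESeq2. No other call of a member changed with the block.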
